A study of Mus musculus with 4 samples.

Results

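The IL-4 and IL-13 signalling axis was followed in mouse acute myeloid leukemia cells as 10 genes, taken by exact symbol from a deposited expression table of 24497 entries other than spike-ins. They were the cytokines Il4 and Il13, the receptor chains Il4ra, Il13ra1 and Il2rg, the kinases Jak1 and Jak3, the transcription factor Stat6, and the IL-4-inducible genes Il4i1 and Cdh1. All 10 passed the filter of at least 1 TPM (a level corrected for transcript length and scaled to the same total in each library) in at least 2 libraries, as did 11837 genes in all. The 10 genes were proposed with their values in these same libraries known, so their changes are described here without a test.

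The knockout-labelled group had 2 libraries (n = 2) from leukemic cells of Tet2-/- origin, in which exons 8 to 10 of Tet2 are absent, and the WT group had 2 libraries (n = 2) from cells of wild-type origin. Tet2 encodes a dioxygenase that oxidises 5-methylcytosine. Both groups were made from bone marrow hematopoietic stem cells, carried NRAS and AE9a (the truncated AML1-ETO9a fusion), and their labels list no treatment. Both grew in RPMI medium under selection with G418 and puromycin. The cytokines supplied were SCF (50 ng/ml), IL-6 (10 ng/ml) and IL-3 (10 ng/ml), and neither IL-4 nor IL-13 is named. The labels do not say whether replicates were separate cultures or animals, and read depth is unknown. Each SD below is the spread between the 2 libraries of a group. Each SE comes from a fit that also pools spread across genes. Both may reflect technical spread only. Tet2 transcript had 53.5 and 52.8 TPM in the knockout-labelled libraries, against 35.0 and 40.0 TPM in WT. A value for the whole gene does not check a deletion of 3 exons, so each direction below is one between libraries by their labels.

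IL-4 and IL-13 are related cytokines of type 2 immunity, made mainly by basophils, mast cells, eosinophils and T helper and innate lymphoid cells. IL-4 binds IL-4Rα, which pairs with the common gamma chain (Il2rg) in the type I receptor of blood cells, or with IL-13Rα1 in the type II receptor, which also takes IL-13. JAK kinases bound to these chains phosphorylate STAT6, which then enters the nucleus. In mouse macrophages this leads to alternative activation, with induction of Arg1, Retnla, Chil3 and Mrc1, and of the genes Il4i1 and Cdh1.

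In the knockout-labelled libraries both cytokines and both inducible genes were lower, while the receptor chains and kinases differed by far less. Il4i1 was 11.2-fold, Cdh1 3.20-fold, Il13 2.30-fold and Il4 1.84-fold lower in mean TPM. Among the receptor and kinase genes the ratio of means, knockout-labelled over WT, ran from 0.934 for Il13ra1 to 1.25 for Jak3, and it was 0.857 for Stat6. The values of the 2 groups did not overlap for any of the 10 genes, 4 being higher and 6 lower. Among all genes tested, 42.2% were higher without overlap and 26.5% lower without overlap. As the genes were chosen from this contrast, nothing is read from these shares.

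**Figure D1:**
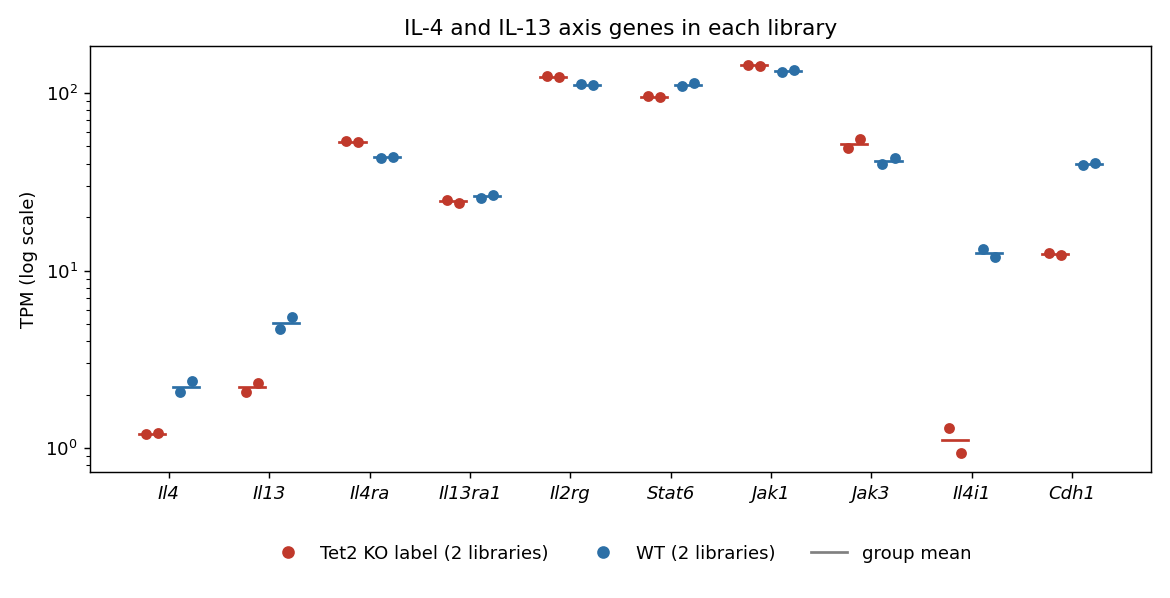
TPM (log scale) of the 10 axis genes in each library, knockout-labelled in red and WT in blue, with a line at the mean of 2 libraries. Il4i1 lies at 1.30 and 0.94 TPM in the knockout-labelled libraries and at 13.2 and 11.9 TPM in WT, the widest separation, while Jak1 and Il2rg lie above 110 TPM in all 4 libraries.

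The promoter windows of the genes with the widest range are shown because Tet2 acts on methylated cytosine, which in mammalian DNA lies mostly in CpG pairs. RefSeq windows on GRCm38.p6, from 250 bases before to 50 bases after a gene's start, matched 9 of the 10 genes in 10 windows, with 2 starts for Il4; Cdh1 had none. Each line is 5′ to 3′ on the gene's own strand, and capitals mark CpG pairs. Il4ra, which was higher in the knockout-labelled libraries, is shown for contrast.
Il4i1, chr7:44836038-44836337, plus strand: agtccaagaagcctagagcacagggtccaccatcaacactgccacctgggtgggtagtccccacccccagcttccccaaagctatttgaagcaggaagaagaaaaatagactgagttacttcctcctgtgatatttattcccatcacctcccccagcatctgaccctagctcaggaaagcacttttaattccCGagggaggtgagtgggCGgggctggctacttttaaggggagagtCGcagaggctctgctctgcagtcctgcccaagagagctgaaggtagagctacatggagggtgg
Il13, chr11:53634653-53634952, minus strand: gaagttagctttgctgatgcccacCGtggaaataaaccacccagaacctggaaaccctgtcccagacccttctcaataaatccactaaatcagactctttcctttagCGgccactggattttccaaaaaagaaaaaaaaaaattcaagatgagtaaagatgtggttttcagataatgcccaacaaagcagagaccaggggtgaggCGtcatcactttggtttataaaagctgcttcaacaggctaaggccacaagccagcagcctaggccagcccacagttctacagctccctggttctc
Il4, first window, chr11:53617289-53617588, minus strand: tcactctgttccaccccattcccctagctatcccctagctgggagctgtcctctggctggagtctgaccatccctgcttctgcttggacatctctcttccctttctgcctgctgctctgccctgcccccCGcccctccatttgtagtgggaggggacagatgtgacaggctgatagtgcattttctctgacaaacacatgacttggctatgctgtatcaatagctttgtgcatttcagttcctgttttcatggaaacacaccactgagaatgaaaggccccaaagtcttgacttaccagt
Il4, second window, chr11:53618616-53618915, minus strand: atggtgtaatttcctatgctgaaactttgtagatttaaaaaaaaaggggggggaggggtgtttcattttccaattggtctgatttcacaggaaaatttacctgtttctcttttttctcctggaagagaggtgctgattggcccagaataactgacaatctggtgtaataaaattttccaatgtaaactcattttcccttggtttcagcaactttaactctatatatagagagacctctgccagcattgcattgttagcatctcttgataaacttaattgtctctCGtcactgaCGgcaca
Il4ra, chr7:125552021-125552320, plus strand: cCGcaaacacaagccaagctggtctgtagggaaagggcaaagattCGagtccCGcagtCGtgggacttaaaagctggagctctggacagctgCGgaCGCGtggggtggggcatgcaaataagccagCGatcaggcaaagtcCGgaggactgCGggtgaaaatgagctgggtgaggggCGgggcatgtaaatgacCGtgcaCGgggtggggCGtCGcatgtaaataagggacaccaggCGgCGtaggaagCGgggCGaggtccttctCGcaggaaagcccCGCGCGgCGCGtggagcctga

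The windows of Il4i1, Il13 and Il4 held few CpG pairs. Il4i1 and Il13 had 3 each, and the 2 windows of Il4 had 1 and 2, where the median of 32817 RefSeq windows was 7. The Il4i1 window lies inside the gene as annotated in GENCODE M21, which starts at 44816387, and that start was not examined. Il4ra had 25, more than 81.6% of windows. The split did not follow direction across the axis: Il2rg, higher in the knockout-labelled libraries, also had 3, and Jak3 had 9, while Stat6, which was lower, had 8. Jak1, which was higher, had 29, and Il13ra1, which was lower, had 28. Methylation was not measured in these libraries.

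The same windows were searched on both strands for a STAT6-type motif, TTC and GAA with any 4 bases between them, and for the motif of other STAT factors, TTC and GAA with any 3 bases between them. Each motif reads the same on both strands, and matches of the 2 motifs may overlap. The first Il4 window held TTCATGGAA at bases 247 to 255 counted from its 5′ end, which spans the RefSeq start of that window. That window lies inside Il4 as annotated in GENCODE M21, whose 5′ end, at 53618669, falls in the second window. The second held TTCACAGGAA at bases 84 to 93. No other window of the axis held either motif, Il4i1 included. Of all windows 6.94% held the first and 8.29% the second, so 1 match of each among 10 windows is near those shares. A match is a match of letters and no evidence of binding, and a window of 300 bases leaves out enhancers.

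Among the ligands, Il4 lies on chromosome 11 from 53602982 to 53618669 and Il13 beside it from 53631324 to 53634702, both on the minus strand (GRCm38). Il13 had 2.07 and 2.34 TPM in the knockout-labelled libraries, against 4.69 and 5.47 TPM in WT. Both WT libraries were above both knockout-labelled ones. Il13 averaged 2.21 ± 0.19 TPM in the knockout-labelled libraries and 5.08 ± 0.55 TPM in WT (SD, n = 2 each), a difference of -0.92 on the log2(TPM + 1) scale (SE 0.11). The added 1 shrinks changes of weakly expressed genes, and with a pseudocount of 0.1 the difference was -1.17.

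Il4 was the gene with the lowest level of the axis over the 4 libraries. It had 1.20 and 1.22 TPM in the knockout-labelled libraries, against 2.06 and 2.39 TPM in WT, again without overlap. The difference was -0.54 (SE 0.12) on the log2(TPM + 1) scale and -0.82 with a pseudocount of 0.1. Within a library, Il13 exceeded Il4 by 1.73 and 1.92 times in the knockout-labelled libraries and by 2.28 and 2.29 times in WT. Rad50, a DNA repair gene that lies between Il13 and Il5 and holds the control region of this locus, had 33.6 and 32.6 TPM in the knockout-labelled libraries and 30.0 and 31.7 TPM in WT. Kif3a, the kinesin gene on the other side of Il4, had 5.32 and 5.46 TPM against 4.69 and 4.83 TPM. Neither neighbour passed the test.

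Of the other type 2 cytokines, alarmins and factors that drive them, 9 of 18 were kept. Among these 1 fell, none rose and 8 did not pass an adjusted p under 0.05 in the limma fit over all genes. Over all genes tested, 30.5% passed, 18.9% higher and 11.6% lower. These shares stand beside the counts of every list below, and counts near them are not read as a trait of a list. The median log2 change of the list was 0.01, beside 0.04 over all genes. At an unadjusted limma p under 0.05, 1 gene was higher and 2 were lower. Il5, Il9, Il31, Il3 and Il25 were listed at 0 in all 4 libraries. The gene that fell was Junb, an AP-1 factor that takes part in Il4 transcription in T cells, with 173.9 and 183.7 TPM in the knockout-labelled libraries and 198 and 196 TPM in WT (log2 change -0.14, SE 0.039, adjusted p = 0.046). The Junb call was lost with no filter, with scaling to the spike-ins, without a variance trend, with a replicate block and without any single library (adjusted p from 0.067 to 0.26). Gata3, the master factor of T helper 2 cells, had 1.77 and 1.73 TPM against 1.61 and 1.92 TPM, and these ranges overlap.

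Cells known to make these cytokines were represented unevenly by their markers. Of 8 basophil markers 7 were kept, of which 1 rose, 3 fell and 3 did not pass, and their summed level was 2147 to 2205 TPM in the knockout-labelled libraries and 1997 to 2070 TPM in WT. That direction rested on Cpa3, a protease shared by basophils and mast cells, with 1667 and 1606 TPM against 1302 and 1366 TPM. Without Cpa3 the basophil sum was 538 and 541 TPM, against 695 and 704 TPM in WT. That gap lay mostly in Hdc, the histamine-forming enzyme also in the mast cell list, with 99.0 and 98.3 TPM against 208 and 214 TPM. Gata2 (log2 change -0.02, limma adjusted p = 0.70) and Cd200r3 (0.01, adjusted p = 0.86) did not pass. Mcpt8, the basophil protease, had 274 and 266 TPM against 278 and 275 TPM (log2 change -0.03, limma adjusted p = 0.46), whereas Prss34, another basophil protease, fell to 34.4 and 39.2 TPM, against 69.9 and 73.4 TPM in WT (-0.95, adjusted p = 8.7e-04). Of 8 mast cell markers 6 were kept, of which 2 rose and 4 fell; Mrgprb2 was at 0 in every library. The mast cell sum was 1744 to 1805 TPM against 1611 to 1690 TPM, and without Cpa3 it was lower, at 138.2 and 137.7 TPM against 308 and 324 TPM. Besides Cpa3, the gene that rose was Kit, with 7.98 and 8.80 TPM against 5.10 and 5.39 TPM in WT (log2 change 0.59, limma adjusted p = 0.0055). The genes that fell were the chymase Cma1 (5.05 and 4.88 TPM against 15.4 and 16.5 TPM in WT), the tryptases Tpsb2 (log2 change -1.63) and Tpsab1 (-1.27), and Hdc (-1.09). The largest of their limma adjusted p was 0.0036. Hdc held most of the gap in the sum without Cpa3. Tpsab1, at 0.16 and 0.29 TPM against 1.79 and 2.13 TPM in WT, passed the filter through its WT values alone. Of 9 eosinophil markers 3 were kept, 1 higher and 2 lower, with a sum of 47.9 to 49.2 TPM against 47.7 to 53.1 TPM. Most of it was Siglecf, also found on other myeloid cells, which rose (0.45, limma adjusted p = 0.0070). Without Siglecf the sum was 1.58 and 1.99 TPM, against 15.9 and 17.1 TPM in WT. The granule protein gene Prg2 fell to 0.93 and 1.46 TPM, against 13.7 and 14.7 TPM in WT (-2.80, limma adjusted p = 2.5e-04). Ear2 had listed values of 0 in the knockout-labelled libraries and of 1.28 and 1.30 TPM in WT. It passed the filter through its WT values alone, and a gene kept in that way can only be lower. Its call (limma adjusted p = 0.0046) is therefore a description only. Of 10 markers of T cells and innate lymphoid cells 5 were kept, of which 1 rose, 2 fell and 2 did not pass. Their sum was 182.1 to 182.5 TPM against 135 to 139 TPM, most of it Thy1, without which it was 40.2 and 40.9 TPM against 54.4 and 57.3 TPM, while the T cell receptor genes Cd3e, Cd3d and Cd3g stayed at or below 0.07 TPM in every library. The part these markers have in the level of Il4 and Il13 was not tested, and in bulk RNA fewer cells of a type and less RNA per cell cannot be told apart.

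Among the receptor chains, Il4ra, the subunit that binds IL-4 and is shared by both receptors, had 53.8 and 52.5 TPM in the knockout-labelled libraries, against 43.0 and 43.5 TPM in WT. Its groups did not overlap, and the difference was 0.29 on the log2 scale (SE 0.038), or 0.18 with scaling to the spike-ins. Il2rg, the common gamma chain, had 124 and 122 TPM against 111 and 110.3 TPM, also without overlap. Its difference was 0.15 (SE 0.033), or 0.04 with scaling to the spike-ins. Il13ra1 was the chain that went the other way. It had 24.8 and 24.1 TPM in the knockout-labelled libraries, against 25.7 and 26.7 TPM in WT, a difference of -0.10 (SE 0.047).

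Ratios within a library do not change when each library is scaled by a single factor, although quantile scaling can change them. Il4ra stood to Il13ra1 as 2.17 and 2.18 in the knockout-labelled libraries, against 1.67 and 1.63 in WT, so the chain common to both receptors was in greater excess over the type II partner. Il2rg stood to Il13ra1 as 5.01 and 5.07 against 4.33 and 4.14. Il2rg stood to Il4ra as 2.31 and 2.32 against 2.59 and 2.54. In each of these ratios the 2 groups were apart, with n = 2 each and no test.

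**Figure D2:**
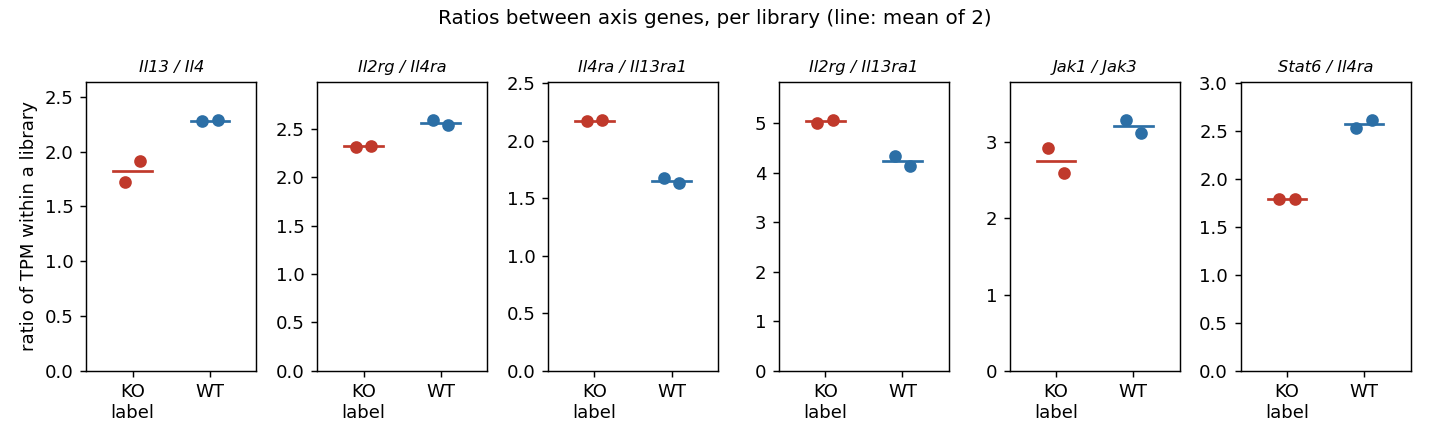
Ratios between the TPM of 2 axis genes within each library, with knockout-labelled libraries on the left of each panel, WT on the right, and a line at the mean of 2. The Il4ra to Il13ra1 ratio is 2.17 and 2.18 in the knockout-labelled libraries and 1.67 and 1.63 in WT, and the Stat6 to Il4ra ratio is 1.79 in each knockout-labelled library and 2.53 and 2.61 in WT.

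Of the 14 other chains of gamma-chain and type 2 cytokine receptors 8 were kept, of which 1 rose, 2 fell and 5 did not pass (median log2 change -0.08). Il7r, the IL-7 receptor chain, fell to 5.94 TPM in each knockout-labelled library, against 13.5 and 15.5 TPM in WT (log2 change -1.15, SE 0.082, limma adjusted p = 7.7e-04). Il1rl1, the receptor of the alarmin IL-33, fell to 30.5 and 31.4 TPM, against 38.0 and 38.4 TPM in WT (-0.30, SE 0.041, adjusted p = 0.0059, or 0.067 and 0.053 without either knockout-labelled library). Il2ra, the high-affinity chain of the IL-2 receptor, rose to 11.7 and 12.8 TPM, against 7.24 and 7.09 TPM in WT (0.69, SE 0.070, adjusted p = 0.0022). Il13ra2, the decoy receptor of IL-13, was listed at 0 throughout. Il1rap (-0.28, adjusted p = 0.055) and Il17ra (-0.09, adjusted p = 0.14) did not pass, although Il1rap passed under each of the 3 other scalings (adjusted p from 0.038 to 0.045) and Il17ra with median-of-ratios scaling (adjusted p = 0.047).

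The kinases and the transcription factor were among the well expressed genes of the axis. Jak1, which binds IL-4Rα, had 142.8 and 142.4 TPM in the knockout-labelled libraries, against 131 and 135 TPM in WT. Its groups did not overlap, its difference was 0.10 (SE 0.033), and with scaling to the spike-ins it was -0.02. Jak3, which binds the common gamma chain, had 48.7 and 54.9 TPM against 39.9 and 43.2 TPM. Jak3 differed by 0.31 (SE 0.071), with the widest spread between knockout-labelled replicates among the kinases and receptor chains. Without knockout-labelled replicate 1 the difference was 0.40. Stat6 had 96.3 and 94.3 TPM in the knockout-labelled libraries, against 109 and 114 TPM in WT. The groups did not overlap, and the difference was -0.22 (SE 0.039), or -0.34 with scaling to the spike-ins. Stat6 stood to Il4ra as 1.79 and 1.79 in the knockout-labelled libraries and as 2.53 and 2.61 in WT.

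In the order of levels, Jak1 led in both groups, and Il2rg and Stat6 followed. In the knockout-labelled libraries Il2rg (123 TPM on average) stood above Stat6 (95.3 TPM) without overlap, while in WT Stat6 (111.2 TPM) and Il2rg (110.9 TPM) overlapped. Il4ra and Jak3 overlapped in both groups. Cdh1 overlapped Jak3 in WT (39.7 TPM for Cdh1) but lay below Il13ra1 in the knockout-labelled libraries (12.4 TPM). Il4i1 lay above both cytokines in WT (12.5 TPM), and in the knockout-labelled libraries it was in last place (1.12 TPM), overlapping Il4.

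Of the 8 other JAK and STAT genes, all kept, 3 rose, none fell and 5 did not pass (median log2 change 0.13), while at an unadjusted limma p under 0.05 there were 4 higher and 1 lower. Stat4, which acts downstream of IL-12, rose to 56.3 and 53.8 TPM in the knockout-labelled libraries, against 38.5 and 39.6 TPM in WT (0.49, SE 0.043, limma adjusted p = 0.0016). Stat5b (0.30, SE 0.035, adjusted p = 0.0034) and Stat5a (0.28, SE 0.038, adjusted p = 0.0057), which signal from the IL-3 receptor, also rose; with scaling to the spike-ins neither passed (adjusted p = 0.12 and 0.18). Stat5a did not pass without either knockout-labelled library (adjusted p = 0.062 and 0.067), nor Stat5b without knockout-labelled replicate 1 (adjusted p = 0.052). Stat2 (0.17, adjusted p = 0.065) and Jak2 (-0.10, adjusted p = 0.097) did not pass, although Jak2 did with quantile scaling (adjusted p = 0.049) and with median-of-ratios scaling (adjusted p = 0.030).

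**Figure D3:**
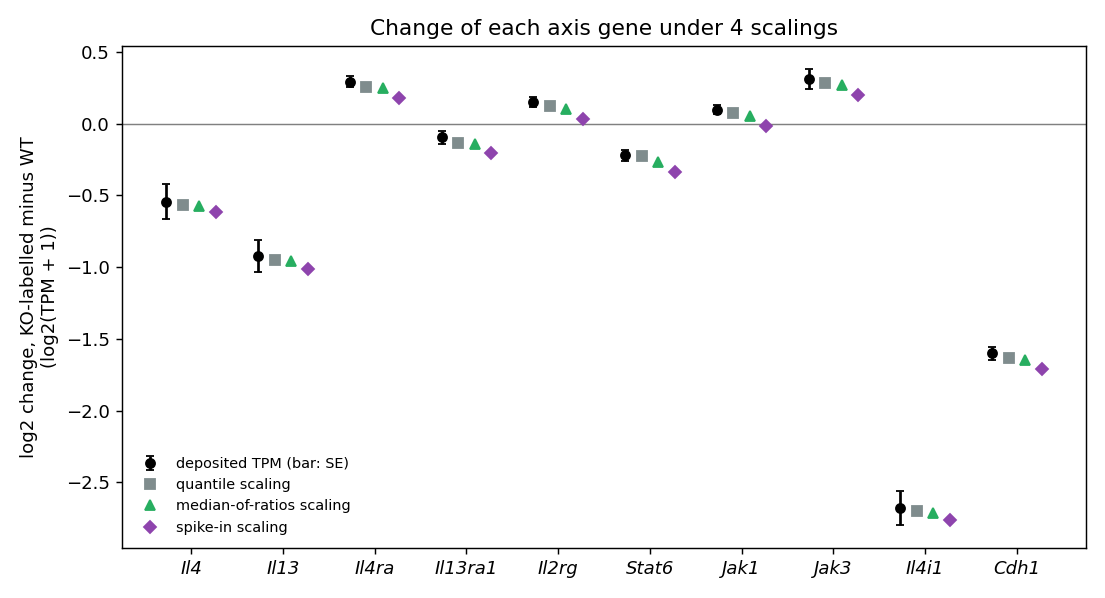
Difference of each axis gene (knockout-labelled minus WT, log2(TPM + 1)) with the deposited TPM and its SE, and under quantile, median-of-ratios and spike-in scaling. Il4, Il13, Stat6, Il4i1 and Cdh1 stay below 0 under each of the 4 scalings, while Jak1 moves from 0.10 to -0.02 and Il2rg from 0.15 to 0.04 with the spike-ins.

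Of 28 adaptors, phosphatases and inhibitors at the receptor and STAT6 cofactors, 27 were kept, of which 6 rose, 3 fell and 18 did not pass (median log2 change 0.06). These counts are near the shares over all genes, 18.9% higher and 11.6% lower. Parp14, a STAT6 coactivator that is also interferon-inducible, rose to 18.2 and 18.7 TPM in the knockout-labelled libraries, against 13.6 and 12.8 TPM in WT (0.45, SE 0.056, limma adjusted p = 0.0042). Socs3, a feedback inhibitor of cytokine receptors, rose by 0.33 (SE 0.038, adjusted p = 0.0033), and Pik3cd, a leukocyte PI3-kinase subunit, by 0.24 (SE 0.036, adjusted p = 0.0069). Dok2, an adaptor that restrains RAS signalling, fell to 45.8 and 44.1 TPM, against 68.6 and 69.9 TPM in WT (-0.61, SE 0.040, adjusted p = 5.8e-04). Ptpn1, a phosphatase that acts on JAK kinases and STAT6, fell to 50.5 and 52.7 TPM, against 73.1 and 73.6 TPM in WT (-0.50, SE 0.039, adjusted p = 0.0011). With scaling to the spike-ins 1 of these genes rose and 3 fell, and Socs3 and Pik3cd no longer passed (adjusted p = 0.081 and 0.28). Pik3cd did not pass without either knockout-labelled library (adjusted p = 0.062 and 0.081), nor Parp14 without knockout-labelled replicate 2 (adjusted p = 0.052).

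The receptors for the cytokines in the medium all passed the filter, and of 6 genes 2 rose, 3 fell and 1 did not pass (median log2 change -0.14). Il3ra, the specific chain for IL-3, rose by 0.27 (SE 0.040, limma adjusted p = 0.0074, or 0.21 with scaling to the spike-ins), and Kit, the receptor of SCF, by 0.59 (SE 0.080, adjusted p = 0.0055). The signalling chains Csf2rb (-0.31, SE 0.032, adjusted p = 0.0023) and Csf2rb2 (-0.27, SE 0.036, adjusted p = 0.0051), which IL-3 uses in the mouse, fell, as did Il6st, the signalling chain for IL-6 (-0.27, SE 0.047, adjusted p = 0.013). Without knockout-labelled replicate 2, adjusted p was 0.076 for Il3ra, 0.054 for Kit, 0.060 for Csf2rb2 and 0.075 for Il6st. Without knockout-labelled replicate 1 it was 0.054 for Il3ra, 0.070 for Csf2rb2 and 0.098 for Il6st, and without WT replicate 1 it was 0.056 for Il6st. Csf2rb was the best expressed of these, with 540.3 and 557 TPM in the knockout-labelled libraries and 677 and 686 TPM in WT.

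Il4i1, a secreted L-amino acid oxidase first found as an IL-4-induced gene of B cells, had the largest difference of the axis. It had 1.30 and 0.94 TPM in the knockout-labelled libraries, against 13.2 and 11.9 TPM in WT. The 2 groups were far apart, and knockout-labelled replicate 2 lay below the 1 TPM of the filter. Il4i1 averaged 1.12 ± 0.25 TPM in the knockout-labelled libraries and 12.5 ± 0.93 TPM in WT (SD, n = 2 each), a difference of -2.68 (SE 0.12), or -3.39 with a pseudocount of 0.1 and -1.52 with a pseudocount of 5.

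Il4i1 lies on chromosome 7 from 44816387 to 44840809 in GENCODE M21, plus strand, and shares sequence with other genes. Exons of Tbc1d17 on the opposite strand cover 83.9% of its exonic bases there, those of Nup62 on the same strand 2.38% and those of Atf5 on the opposite strand 2.01%. The library kit was stranded, but the strand setting and annotation used by the submitters are not given in the sources used here. Reads of these genes may therefore not have been told apart. Tbc1d17 had 19.6 and 21.0 TPM in the knockout-labelled libraries and 19.1 and 20.8 TPM in WT, with overlapping groups (log2 change 0.03, limma adjusted p = 0.79). Nup62, a nuclear pore gene, had 77.1 and 75.4 TPM against 67.9 and 72.0 TPM (0.12, adjusted p = 0.082), and Atf5, a stress response factor, 38.0 and 38.7 TPM against 35.2 and 32.0 TPM (0.19, adjusted p = 0.055). None of these 3 genes was lower in the knockout-labelled libraries.

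Other axis genes overlap a neighbour as well. Stat6 shares 40 exonic bases (0.909%) with Nab2 on the opposite strand, which fell to 33.6 and 31.7 TPM, against 41.7 and 41.7 TPM in WT (-0.34, limma adjusted p = 0.0051). Jak3 shares 404 bases (7.55%) with Insl3 on the same strand, which rose to 6.32 and 4.27 TPM, against 2.93 and 2.83 TPM in WT (0.68, adjusted p = 0.032). Il2rg shares 30.5% of its exonic bases with Gm20489 on the same strand, and Il4ra 9.51% with the antisense gene Gm44876. The values of Stat6, Jak3, Il2rg and Il4ra carry that uncertainty.

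Cdh1 encodes E-cadherin, the adhesion molecule of epithelia, which alternatively activated mouse macrophages also make. It lies on chromosome 8 from 106603351 to 106670246, plus strand. Cdh1 had 12.6 and 12.2 TPM in the knockout-labelled libraries, against 39.0 and 40.3 TPM in WT, and the spread within either group was small beside the gap between them. The means were 12.4 ± 0.23 TPM in the knockout-labelled libraries and 39.7 ± 0.92 TPM in WT (SD, n = 2 each), a difference of -1.60 (SE 0.048). Of 6 epithelial markers, only Epcam was kept, and it rose to 6.27 and 7.21 TPM, against 3.21 and 3.53 TPM in WT (0.82, limma adjusted p = 0.0037). The markers under the filter were mixed in direction. Krt18 had 0.95 and 1.21 TPM in the knockout-labelled libraries and 0.52 TPM in each WT library, while Cldn7 had 0.29 and 0.35 TPM against 0.42 and 0.48 TPM. Krt8, Krt19 and Esrp1 stayed at or below 0.18 TPM in every library. The part of these markers in the level of Cdh1 was not tested.

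Of 13 other cadherin and catenin genes 5 were kept, of which 1 rose, 3 fell and 1 did not pass (median log2 change -0.17). Jup, the catenin gamma that binds E-cadherin, averaged 9.49 ± 0.69 TPM in the knockout-labelled libraries and 18.6 ± 1.51 TPM in WT (SD, n = 2 each), and so fell (-0.90, SE 0.081, limma adjusted p = 0.0016). The catenins Ctnna1 (-0.22, SE 0.037, adjusted p = 0.010) and Ctnnb1 (-0.17, SE 0.032, adjusted p = 0.014) fell by less, and neither passed without either knockout-labelled library (adjusted p from 0.075 to 0.13). Ctnnd1, the catenin delta, did not pass (0.10, adjusted p = 0.35). Cdh17, a cadherin of liver and intestine, rose to 14.3 and 14.4 TPM, against 6.11 and 6.44 TPM in WT (1.08, SE 0.062, adjusted p = 4.4e-04).

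Il4i1 breaks down aromatic amino acids, and some of its products act on the aryl hydrocarbon receptor (Ahr). Of 16 amino acid oxidase, tryptophan breakdown and aryl hydrocarbon receptor genes 8 were kept, of which 3 rose, none fell and 5 did not pass (median log2 change 0.12), while at an unadjusted limma p under 0.05 there were 4 higher and 0 lower. Haao, an enzyme of the kynurenine pathway, rose to 67.0 and 70.6 TPM in the knockout-labelled libraries, against 40.6 and 40.4 TPM in WT (0.75, SE 0.042, limma adjusted p = 4.2e-04). Ahr itself rose by 0.42 (SE 0.12, adjusted p = 0.046) and its partner Arnt by 0.15 (SE 0.043, adjusted p = 0.048), but both calls ended without either knockout-labelled library (adjusted p from 0.11 to 0.24) or without WT replicate 1 (0.16 for Ahr and 0.13 for Arnt), and that of Arnt without WT replicate 2 (0.098). With all 4 libraries in, 1 gene of the list was called with no filter, with median-of-ratios scaling or with scaling to the spike-ins. The receptor targets Ahrr (0.29, limma adjusted p = 0.058) and Tiparp (0.07, adjusted p = 0.28) did not pass, although Ahrr did without a variance trend (adjusted p = 0.028). The targets Cyp1a1 and Cyp1b1 were not kept and stayed at or below 0.05 TPM in every library. Ido1, the tryptophan-degrading enzyme that is related in function to Il4i1, was listed at 0 in all 4 libraries.

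**Figure D4:**
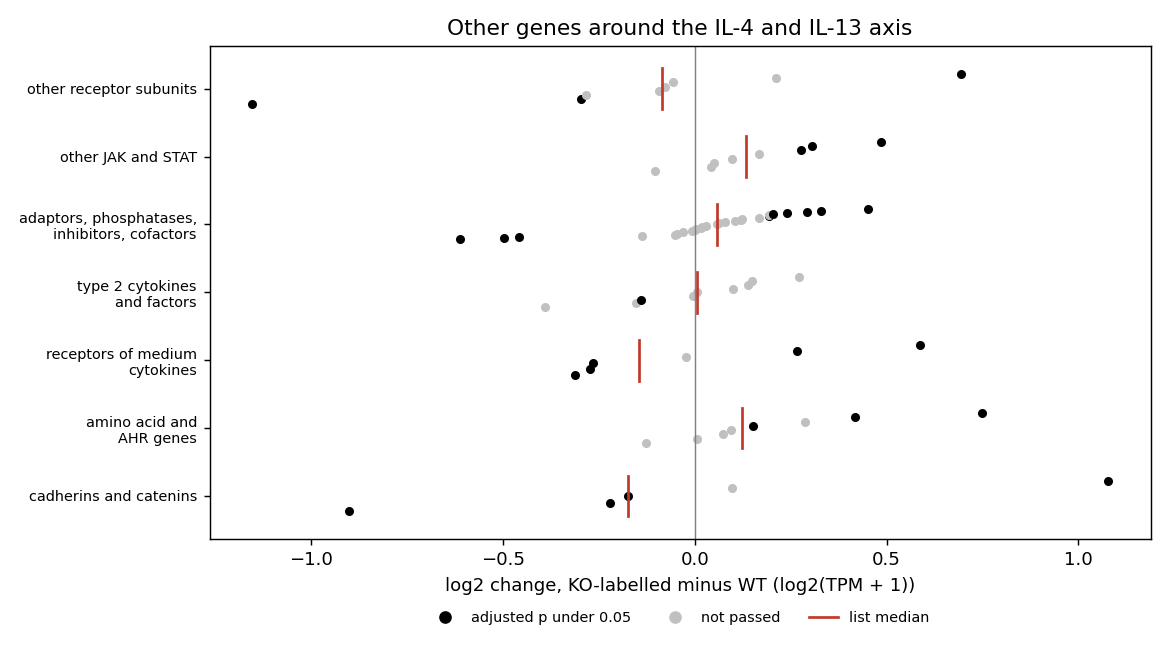
Log2 change (knockout-labelled minus WT, log2(TPM + 1)) of every kept gene in 7 lists around the axis, black where the adjusted p is under 0.05 and grey where it is not, with a red line at the list median. The list medians lie between -0.17 and 0.13, and single genes reach from -1.15 (Il7r) to 1.08 (Cdh17).

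Among known response genes of IL-4 and IL-13 in mouse myeloid cells, most of those kept were lower in the knockout-labelled libraries. Of 48 listed genes 42 were kept, of which 30 fell, 3 rose and 9 did not pass, and the median log2 change was -0.90, beside 0.04 over all genes tested, 11.6% of which fell. The list was drawn up with the largest changes of these libraries already known, so its direction is no independent evidence. With a pseudocount of 5 that median was -0.45, and with no filter on low values -0.66. Of the list, 20 genes fell by more than 1 on the log2 scale, as did 165 (1.39%) of all genes tested. Ccl24, Ch25h and Ctsk, counted among the 30 and the 20, passed the filter through their WT values alone. A gene kept in that way can only be lower in the knockout-labelled libraries. The summed level of the list was 1930 to 1958 TPM in the knockout-labelled libraries and 4075 to 4192 TPM in WT. Between 23 and 29 genes fell when any single library was left out, and 30 under each of the 3 other scalings.

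The response genes with the smallest p were effectors. Beside the arginase Arg1 (-4.78, SE 0.040, limma adjusted p = 8.2e-07) and Retnla (-4.93, SE 0.042, adjusted p = 8.2e-07), a resistin-like protein, stood Slc7a2, the transporter that brings arginine into alternatively activated macrophages. It fell to 1.58 and 1.20 TPM, against 13.2 and 13.1 TPM in WT (-2.57, SE 0.10, adjusted p = 1.6e-04). The lectins Mgl2 (-2.70, SE 0.032), Mrc1 (-2.08, SE 0.039) and Clec7a (-1.89, SE 0.049), the chitinase-like Chil3 (-3.16, SE 0.050) and the eosinophil attractant Ccl24 (-3.42, SE 0.12) fell with adjusted p of 1.2e-04 or less. Atp6v0d2, a proton pump subunit induced during macrophage fusion, fell to 4.50 and 4.91 TPM, against 18.4 and 18.3 TPM in WT (-1.76, SE 0.067, adjusted p = 1.4e-04). Mmp12, the macrophage elastase, kept a high level of 201.6 and 201.8 TPM, against 461 and 489 TPM in WT (-1.23, SE 0.039, adjusted p = 9.2e-05). The integrin Itgax (-1.40, SE 0.053) and fibronectin, Fn1 (-1.47, SE 0.055), fell too (adjusted p = 1.3e-04 each).

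Some response genes, named here after their values were seen, stood apart from that direction. Cish and Socs1, feedback inhibitors induced by IL-4 and also by the cytokines of the medium, had 129 and 139.6 TPM and 42.9 and 43.7 TPM in the knockout-labelled libraries. In WT Cish had 132 and 140.4 TPM and Socs1 36.5 and 40.2 TPM, and neither passed (log2 change -0.02 and 0.17, limma adjusted p = 0.78 and 0.070). Bhlhe40, a factor of macrophage proliferation, had 155 and 159.4 TPM against 154 and 159.1 TPM (adjusted p = 0.97). The 3 genes that rose were Ctla2b (0.52, adjusted p = 6.2e-04), Myc (0.24, adjusted p = 0.014) and Tgfbi (0.17, adjusted p = 0.043). Without either knockout-labelled library, and with scaling to the spike-ins, 1 gene of the list rose, and 2 rose with no filter, with quantile or median-of-ratios scaling, with the replicate block and without WT replicate 1.

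**Figure D5:**
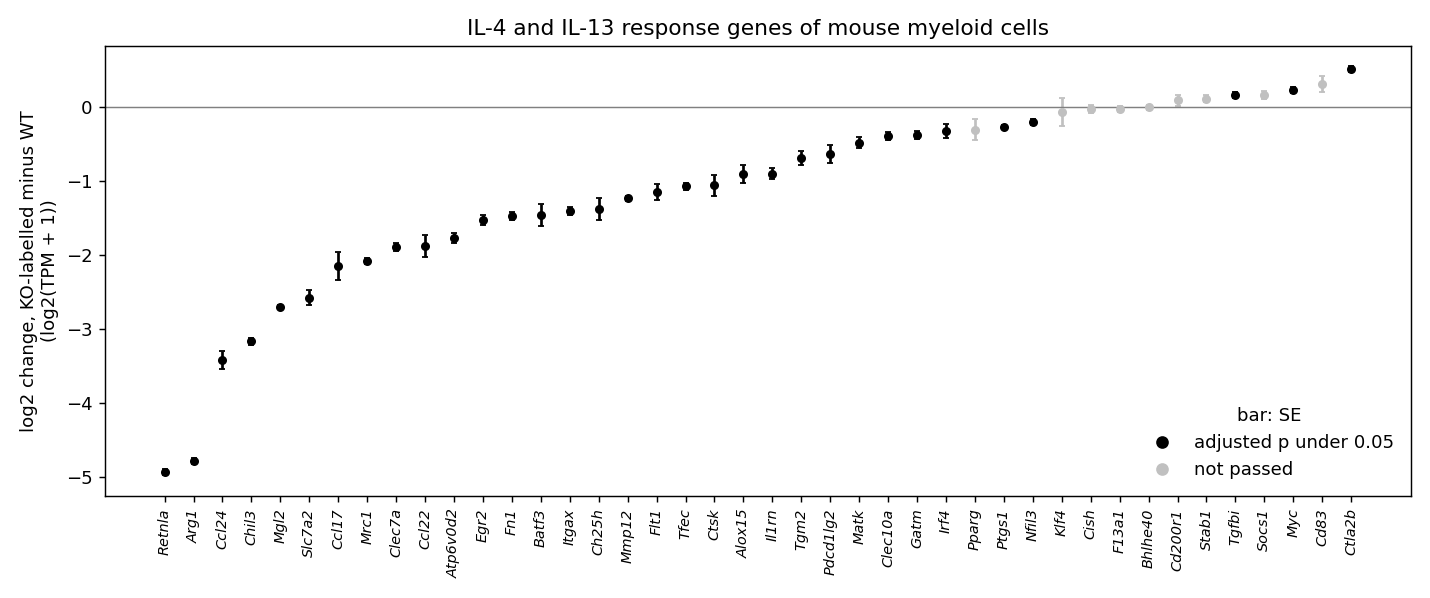
Log2 change (knockout-labelled minus WT, log2(TPM + 1)) of the 42 kept response genes in order of size, with bars for the SE, black where the adjusted p is under 0.05 and grey where it is not. The 30 genes that fell run from Retnla at -4.93 to Nfil3 at -0.20, and the 3 that rose end with Ctla2b at 0.52.

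Cell type markers moved in the same libraries. All 10 neutrophil markers fell, with a summed level of 23764 to 24063 TPM in the knockout-labelled libraries and 46463 to 47093 TPM in WT. Of 11 macrophage and monocyte markers 10 were kept, of which 3 rose, 2 fell and 5 did not pass, and their sum was 2376 to 2400 TPM against 2811 to 2911 TPM. The lower sum rested on Ly6c2, a surface antigen of monocytes, which fell (-0.40, limma adjusted p = 0.0016), and without it the sum was 817 and 804 TPM against 783 and 789 TPM. The chemokine receptors Ccr2 (0.94, adjusted p = 3.6e-04) and Cx3cr1 (1.34, adjusted p = 9.6e-04) rose. Adgre1, which encodes the macrophage antigen F4/80, rose to 385 and 379 TPM, against 330.2 and 328 TPM in WT (0.21, limma adjusted p = 0.0061), while Csf1r had 79.3 and 75.2 TPM against 81.6 and 81.5 TPM (adjusted p = 0.20). Mrc1 is in this list and in the response list. Of 8 stem and progenitor markers 6 were kept, of which 4 rose and none fell, with a sum of 639 to 655 TPM against 477 to 495 TPM. Of 6 B cell markers 1 was kept and rose, with Ms4a1 at 0 throughout and a sum of 4.65 to 4.80 TPM against 2.78 to 2.88 TPM. Of 8 erythroid markers 3 were kept, of which 1 rose and none fell, with Hbb-bs at 0 and a sum of 267 to 299 TPM against 208 to 209.9 TPM. The part of these shifts in the levels of the axis was not tested.

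The genes most like Il4i1 over the 4 libraries, by the Euclidean distance between log2(TPM + 1) values centred on each gene's mean, were Slc7a2 (distance 0.14), Mgl2 (0.19) and Ceacam10 (0.22). Slc7a2 and Mgl2 are also in the response list. Closest to Cdh1 were Olfm1 (0.056), the mast cell tryptase Tpsb2 (0.065) and Chil1 (0.071). Tpsb2 had 25.7 and 25.3 TPM in the knockout-labelled libraries and 77.9 and 84.9 TPM in WT. With 4 libraries in 2 groups such a likeness amounts to a like difference between the groups, and it is given as a description.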

How the data were processed

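Gene expression was measured by RNA-seq of poly(A) RNA (KAPA stranded mRNA kit) in 4 libraries, 2 knockout-labelled and 2 WT, grouped by their labels. The authors deposited 1 table of 24589 entries in TPM, read as such because all libraries have the same total; 92 entries are ERCC spike-ins (2.98% to 3.41% of a library). The submitters' processing notes name the tools STAR and RSEM and the build mm10; versions, roles, annotation and strand setting are not given in the sources used here. TPM keep no depth, so depth is unknown and no counting interval is given.

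After removal of spike-ins, genes reaching 1 TPM in 2 or more libraries were compared as log2(TPM + 1) with limma 3.58.1 in R 4.3.3, with a variance trend and no block, on 11837 genes, and two-sided p were adjusted by Benjamini-Hochberg over all of them (2 residual degrees of freedom, prior 3.51). An exact permutation test of 2 against 2 cannot go below 0.333, so calls rest on the spread limma pools across genes. The step was run on simulated libraries with independent noise, which does not test for effects shared by the libraries of a group. The members and lists were chosen with earlier results of these data known. Named were all 10 members, up to 12 called response genes averaging at least 5 TPM in the higher group, the 5 genes with the smallest p of each other list, and the 3 nearest genes of the 2 members with the widest range; others were chosen after their values were seen. Alternatives were 2 pseudocounts, 2 filters, 3 scalings, no trend, a replicate block and each library left out. Coordinates are GENCODE M21 on GRCm38 (mm10) and promoters RefSeq GRCm38.p6.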

Additional observations from a re-analysis of the deposited data

How the results depend on the processing

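Since the 10 axis genes were chosen on these libraries, their values under other settings are given as ranges only. Over all settings the log2 difference ran from -3.39 to -1.52 for Il4i1, -1.71 to -1.36 for Cdh1, -1.17 to -0.48 for Il13 and -0.82 to -0.22 for Il4; a filter at 5 TPM removed Il13 and Il4. Of the 10, Jak1 alone changed sign, with spike-in scaling. There were 655 values of 47 named list genes under the 14 other settings. Of these, 594 were counted as unchanged, 53 lost the call, 8 gained it and 0 of the called values reversed. A change of sign in a gene not called as deposited was counted as unchanged.

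Genes called higher numbered 2237, but 631 with spike-in scaling (29.9% of calls higher, against 62.0% as deposited and 48.1% with median-of-ratios scaling) and 500 to 1910 without single libraries. Genes called lower numbered 1369, or 515 to 995 without single libraries. With spike-in scaling the median of all genes moved to -0.07, and called genes numbered 1 of the JAK and STAT list, 4 of the adaptor list, 0 of the type 2 cytokine list and 1 of the amino acid list. Median-of-ratios scaling called 5 other receptor chains and 1 amino acid gene. With no filter 0 type 2 cytokine genes and 1 amino acid gene were called. The cause was not tested. Without single libraries, calls ranged from 1 to 3 in the JAK and STAT list, 3 to 9 in the adaptor list, 1 to 5 among receptors for the medium, 1 to 2 in the amino acid list and 2 to 4 among cadherins and catenins, and were 0 in the type 2 cytokine list each time. The replicate numbers of the groups are not said to pair libraries (correlation of same-numbered deviations -0.11). With the replicate block, 1888 genes were higher and 1183 lower, and 0 type 2 cytokine genes were called. A crossed replicate block, chosen after seeing the data, called 2136 genes higher, 1327 lower and 1 amino acid gene. Unknown depth limits the genes near 1 TPM, Il4 and Il4i1 among them.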
